A study of Homo sapiens with 6 samples.

Results

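The genes described here are 10 members of the BCL2 family, which were found by their symbols among the 20030 genes of the deposited count table. They comprise the anti-apoptotic genes, or guardians, BCL2, BCL2L1 and MCL1, the pore-forming effectors BAK1 and BAX, and the BH3-only genes BCL2L11, BAD, BID, BBC3 and PMAIP1. All 10 had enough counts to be tested, as did 11994 genes in all. RNA-seq was performed on 6 libraries labelled H929, a human multiple myeloma cell line, of which 3 are labelled as knockdown of IGF2BP1 (IGF2BP1-KD) and 3 as its negative control (IGF2BP1-NC). According to the methods, knockdown used a lentiviral short hairpin RNA driven by a U6 promoter, with puromycin selection of stable transfectants, and a pair of target sequences is listed without naming the one these libraries carry. Nothing states that the libraries of a group came from separate cultures, so the p-values measure the spread between these libraries, which may be technical.

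Total counts lay between 16885449 and 18112179 per library, and 3 counts, the limit that a count of 0 allows, correspond to at most 0.178 CPM (counts scaled to a common library size). In IGF2BP1-KD against IGF2BP1-NC libraries, the targeted gene IGF2BP1 changed by -1.85 on the log2 scale (SE, the standard error, 0.0653, with adjusted p = 4.81e-08 in the quasi-likelihood test of edgeR, adjusted after Benjamini and Hochberg over all tested genes), and every IGF2BP1-KD library was below every IGF2BP1-NC library. The label of the cell line was checked against markers. No library had over 3 counts of 7 of the 15 listed plasma cell genes, namely CD27, CD38, FCRL5, IRF4, POU2AF1, TNFRSF13B and TNFRSF17, while 4 exceeded 1 CPM throughout. By contrast, each of 20 erythroid genes exceeded 1 CPM throughout. The summed level of the plasma cell genes was 384 to 463 CPM in IGF2BP1-NC and 406 to 414 CPM in IGF2BP1-KD libraries, and that of the erythroid genes was 9830 to 12000 and 10700 to 11600 CPM. Most of the plasma cell sum came from NSD2, with 5154 to 5828 counts per library, and XBP1, with 1181 to 2689. The remaining plasma cell genes above 1 CPM throughout, SDC1 and PRDM1, had 35 to 62 and 29 to 60 counts. The largest part of the erythroid sum came from the globin gene HBE1, with 78172 to 95239 counts per library. In the comparison described further on, 2 of the 20 erythroid genes rose and 9 fell, with a median log2 fold change of -0.23. Of the 6 plasma cell genes with enough counts, 1 rose (SLAMF7) and none fell. Beside these counts, 13.7% of all tested genes were higher and 14.5% lower. SLAMF7 had 4, 5 and 4 counts in IGF2BP1-NC and 52, 42 and 181 in IGF2BP1-KD libraries, and lost its call without IGF2BP1-NC library 1 or 3 (highest adjusted p = 0.0588, edgeR). The part of these transcripts in the results was not tested. The cells are therefore called by their library labels only.

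BCL2 family proteins control whether the outer membrane of the mitochondrion is breached during apoptosis. BAX and BAK1 form the pores through which cytochrome c leaves, the anti-apoptotic members hold BAX, BAK1 and the BH3-only activators in check, and BH3-only proteins relay stress signals by occupying the groove of the anti-apoptotic members or by activating the effectors. MCL1 is a short-lived protein on which many myeloma cells depend, and BCL2L1 is the member best known for keeping late erythroid precursors alive. IGF2BP1 is an m6A reader that stabilizes bound mRNAs.

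The feature that unites the family is the BH3 segment, a helix with a leucine followed, after a short spacer, by a small residue and an aspartate. The coding stretch of this segment was read from the MANE Select transcript of each member (GRCh38, GENCODE release 44) because it is what the members share beyond their names. A search of the translated coding sequences for this spacing, with arginine, alanine or lysine after the leucine, gave 1 site in each of the 10 members. Without that condition on the next residue, BID had 2 sites and each other member 1. Other proteins were not searched. Each stretch has 30 bases, and capitals mark the leucine codon and the pair of codons for the small residue and the aspartate.
BCL2: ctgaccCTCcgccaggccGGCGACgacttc
BCL2L1: caagcgCTGagggaggcaGGCGACgagttt
MCL1: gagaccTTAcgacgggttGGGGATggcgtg
BAX: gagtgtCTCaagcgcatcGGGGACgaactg
BAK1: cggcagCTCgccatcatcGGGGACgacatc
BCL2L11: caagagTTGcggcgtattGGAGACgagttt
BAD: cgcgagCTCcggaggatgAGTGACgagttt
BID: aggcacCTCgcccaggtcGGGGACagcatg
BBC3: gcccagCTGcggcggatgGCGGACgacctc
PMAIP1: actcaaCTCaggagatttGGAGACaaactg

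The small residue was glycine in 8 members, serine in BAD and alanine in BBC3. Among the anti-apoptotic members, the stretch lies at chr18:63318355-63318384 (minus strand, exon 2) in BCL2, at chr20:31721928-31721957 (minus strand, exon 2) in BCL2L1 and at chr1:150578871-150578900 (minus strand, exon 1) in MCL1. In the effectors it lies at chr19:48955781-48955810 (plus strand, exon 3) in BAX and at chr6:33575393-33575422 (minus strand, exon 4) in BAK1. In the BH3-only genes it lies at chr2:111150097-111150126 (plus strand, exon 3) in BCL2L11, chr11:64271628-64271657 (minus strand, exon 3) in BAD, chr22:17739421-17739450 (minus strand, exon 4) in BID, chr19:47226585-47226614 (minus strand, exon 3) in BBC3 and chr18:59902667-59902696 (plus strand, exon 2) in PMAIP1. The proteins differ widely in length, from 54 codons in PMAIP1 to 350 codons in MCL1. The counts are per gene, so the isoforms of a member cannot be told apart.

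Levels were compared between members as FPKM, which is scaled to gene length. MCL1 and BCL2L1 were the most abundant members, followed by BAX, and BCL2 was at the bottom in both groups. In IGF2BP1-KD libraries, which were closely alike, the mean FPKM (± SD, n = 3) was 79.9 ± 4.1 for BCL2L1, 78.2 ± 0.46 for MCL1 and 46.9 ± 2.45 for BAX. It was 20.4 ± 1.26 for BID, 15.2 ± 0.713 for BAK1, 12.5 ± 0.376 for BBC3 and 8.89 ± 0.0782 for BAD. BCL2L11, PMAIP1 and BCL2 followed with 6.22 ± 0.101, 5.42 ± 0.364 and 0.163 ± 0.0541. In IGF2BP1-NC libraries MCL1 stood before BCL2L1, BBC3 before BAK1 and PMAIP1 before BCL2L11. Some neighbours in this order overlapped in their library values. MCL1 and BCL2L1 overlapped in both groups, while BID and BBC3, BBC3 and BAK1, and BAD and PMAIP1 overlapped in IGF2BP1-NC libraries and were apart in IGF2BP1-KD libraries. The other neighbours were apart in both groups.

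**Figure D1:**
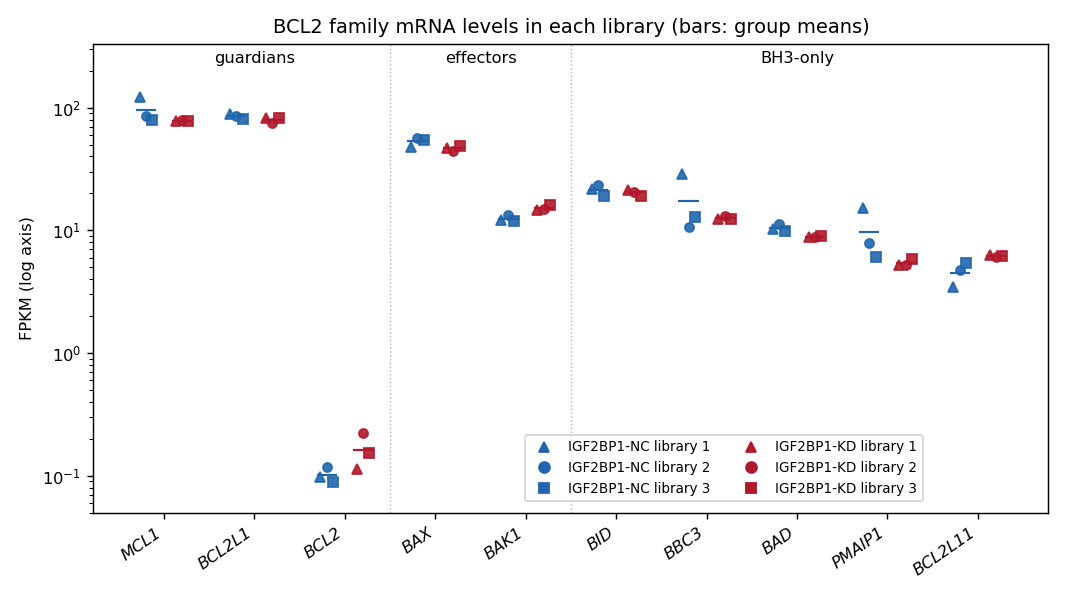
FPKM of the 10 members on a log axis, with 1 point per library (blue, IGF2BP1-NC; red, IGF2BP1-KD; symbols give the library number) and a bar at each group mean. MCL1 and BCL2L1 are highest, BCL2 lies near 0.1 FPKM, and IGF2BP1-NC library 1 is apart from its group for BBC3, PMAIP1 and MCL1.

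IGF2BP1-NC library 1 stood apart from the other control libraries for several members, so results that rest on it are given with and without it. For BCL2, BCL2L1, BAD and BID, the log2 fold changes without it were 0.64, -0.08, -0.27 and -0.09, and none was called. BBC3, also called PUMA, had 1225 counts in this library against 459 and 574 in the other control libraries. PMAIP1, also called NOXA, had 505 counts against 264 and 214. These were the 2 members at least 1.5-fold above both other libraries of their group, and 4.03% of all tested genes were that far above in IGF2BP1-NC library 1, against 0.617% to 2.78% in the other 5 libraries. MCL1 was 1.43-fold above the mean of IGF2BP1-NC libraries 2 and 3, and BCL2L11 was at 0.659 of that mean.

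Genes of the ATF4 response to amino acid and endoplasmic reticulum stress, a list drawn up after this library had been seen, moved with it. The choice of the list favoured such a result, so the counts that follow describe this library and test nothing. Of 19 tested genes, 17 were at least 1.5-fold above the mean of IGF2BP1-NC libraries 2 and 3, none was 1.5-fold below, and the median ratio was 2.86. CHAC1, a glutathione-degrading enzyme, had 847 counts in IGF2BP1-NC library 1 against 43 and 71. SESN2, which restrains mTORC1 and is also on the list of growth arrest genes, had 5089 counts against 1137 and 1217. TNFRSF10B, a death receptor, had 1505 counts against 595 and 459. Among 21 tested growth arrest, DNA damage and stress response genes outside the family, 4 were at least 1.5-fold above and 1 was as far below, with a median ratio of 1.07. Between the groups, 1 of the 19 ATF4 response genes rose (NUPR1) and none fell, where 28.2% of all tested genes were called in either direction. Without IGF2BP1-NC library 1 there were 5 higher and 3 lower, where 32.8% of all tested genes were called. The part of this response in the values of BBC3, PMAIP1, MCL1 and BCL2L11 was not tested.

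**Figure D2:**
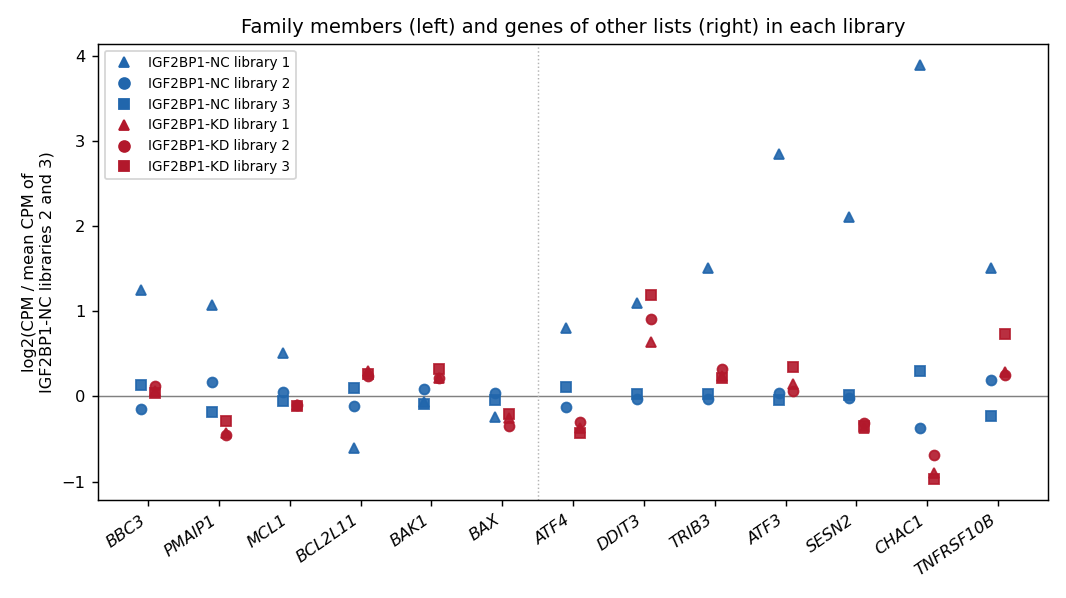
Levels in each library relative to the mean CPM of IGF2BP1-NC libraries 2 and 3 on a log2 scale, for 6 family members and 7 genes of the other lists. IGF2BP1-NC library 1 (blue triangles) is raised for BBC3, PMAIP1 and MCL1 and for all 7 genes on the right, reaches a ratio of 14.9 for CHAC1 and is lowest for BCL2L11.

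To find out whether the family was altered by loss of IGF2BP1, IGF2BP1-KD was compared with IGF2BP1-NC. BAK1 rose, and no member fell, at an adjusted p under 0.05. This is 1 of 10 members, where 28.2% of all tested genes were called in either direction (13.7% higher and 14.5% lower). At an unadjusted p under 0.05 there were 3 members, BAK1, BCL2L11 and BAX, and DESeq2 called 1 member higher (BCL2L11) and 2 lower (MCL1 and PMAIP1). The log2 fold change was above 0 for 3 members and below 0 for 7, with a median of -0.14 beside -0.0048 over all tested genes, and none reached 2-fold. The groups did not overlap in CPM for 5 members, 2 higher and 3 lower, where 45.6% of all tested genes did not overlap (22.4% higher and 23.2% lower). Without IGF2BP1-NC library 1, 2 members were higher and 4 lower without overlap, where 59.3% of all tested genes did not overlap (29.1% higher and 30.2% lower). In bulk RNA, fewer cells of a type and less RNA per cell cannot be told apart.

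BAK1, on chromosome 6 from 33572547 to 33580293, encodes an effector that resides on mitochondria. Its FPKM was 12.2, 13.3 and 11.8 in IGF2BP1-NC and 14.7, 14.8 and 16.0 in IGF2BP1-KD libraries. All 3 IGF2BP1-KD libraries lay above all 3 IGF2BP1-NC libraries, also without IGF2BP1-NC library 1. The change was 0.27 on the log2 scale (SE 0.0835, adjusted p = 0.0306, edgeR), a 1.21-fold rise. Over the 16 other fits the adjusted p lay between 0.0197 and 0.101. It was under 0.05 in 8 of the 10 that kept all libraries and in 2 of the 6 with a library left out, those without IGF2BP1-NC library 1 or 2. The exception among scalings and tools was DESeq2 (adjusted p = 0.0581), beside the replicate block (adjusted p = 0.0558, edgeR). Exons of the pseudogene GGNBP1 on the opposite strand cover 4.19% of the BAK1 mRNA.

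BAX, on chromosome 19 from 48954815 to 48961798, encodes the effector that moves from the cytosol to mitochondria. Its FPKM was 48.1, 56.9 and 54.1 in IGF2BP1-NC and 47.3, 44.3 and 49.1 in IGF2BP1-KD libraries. The groups overlapped through IGF2BP1-NC library 1, and without it every IGF2BP1-KD library was lower. A log2 fold change of -0.19 (SE 0.083, adjusted p = 0.110, edgeR) did not pass the test. Without IGF2BP1-NC library 1 it was -0.26 (SE 0.0707, adjusted p = 0.0125, edgeR), a call that did not occur in the other 15 fits, where the adjusted p lay between 0.0900 and 0.330. The effectors thus had log2 fold changes of opposite sign. BAX FPKM divided by BAK1 FPKM was 3.93, 4.28 and 4.59 in IGF2BP1-NC libraries and 3.21, 3.00 and 3.07 in IGF2BP1-KD libraries, with no overlap. The groups did not overlap for BAK1 alone either, nor in CPM for 45.6% of all tested genes. The ratio is therefore a description and no further test.

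MCL1, on chromosome 1 from 150560895 to 150579738, had an FPKM of 121, 85.5 and 79.8 in IGF2BP1-NC and 77.9, 78.7 and 77.9 in IGF2BP1-KD libraries. Every IGF2BP1-KD library was lower than every IGF2BP1-NC library, but IGF2BP1-NC library 3 was close to them. MCL1 had a log2 fold change of -0.30 (SE 0.138, adjusted p = 0.153, edgeR), which was -0.10 without IGF2BP1-NC library 1 (SE 0.0537, adjusted p = 0.161, edgeR). DESeq2 gave an adjusted p of 0.0441 with all libraries, and edgeR gave 0.0439 without IGF2BP1-NC library 3, in a range of 0.0439 to 0.306 over the other fits.

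BCL2L1, on chromosome 20 from 31664452 to 31723989, encodes BCL-XL. Its FPKM was 89.0, 85.7 and 80.3 in IGF2BP1-NC and 82.3, 75.2 and 82.2 in IGF2BP1-KD libraries, and the groups overlapped. With a log2 fold change of -0.10 (SE 0.0628, adjusted p = 0.259, edgeR), BCL2L1 was called by no fit. Exons of the long noncoding RNA gene ABALON on the opposite strand cover 36.7% of its mRNA. According to the methods, the libraries were made with a stranded mRNA kit, but the strand setting of the counting is not given in the sources used here.

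BCL2, on chromosome 18 from 63123346 to 63320128, was nearly silent, with 19, 23 and 18 counts in IGF2BP1-NC and 23, 42 and 30 counts in IGF2BP1-KD libraries. The groups overlapped at 23 counts. A log2 fold change of 0.67 (SE 0.319, adjusted p = 0.139, edgeR) rests on few counts, and it was called in none of the 14 other fits that tested it. Without IGF2BP1-KD library 2, the highest at 42 counts, its log2 fold change was 0.39 (adjusted p = 0.469, edgeR).

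PMAIP1, on chromosome 18 from 59899996 to 59904305, encodes a BH3-only protein that binds MCL1. It had the largest log2 fold change of the family by size, and its value depended on IGF2BP1-NC library 1. Its FPKM was 15.1, 7.82 and 6.10 in IGF2BP1-NC and 5.23, 5.20 and 5.84 in IGF2BP1-KD libraries, and every IGF2BP1-KD library was lower than every IGF2BP1-NC library. Over all libraries its log2 fold change was -0.84 (SE 0.341, adjusted p = 0.124, edgeR). Without IGF2BP1-NC library 1 it was -0.38 (SE 0.143, adjusted p = 0.0567, edgeR). DESeq2 gave an adjusted p of 0.00437 and edgeR gave 0.0237 without IGF2BP1-NC library 3, in a range of 0.00437 to 0.267 over the 16 other fits.

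BBC3, on chromosome 19 from 47220822 to 47232766, encodes a BH3-only protein that binds all anti-apoptotic members and is induced by endoplasmic reticulum stress. Its FPKM was 28.6, 10.7 and 12.8 in IGF2BP1-NC and 12.4, 13.0 and 12.3 in IGF2BP1-KD libraries. Apart from IGF2BP1-NC library 1, the groups lay on each other. Its log2 fold change was -0.47 (SE 0.419, adjusted p = 0.464, edgeR) and turned to 0.07 (SE 0.0945, adjusted p = 0.592, edgeR) without IGF2BP1-NC library 1. No fit called it.

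BCL2L11, on chromosome 2 from 111119378 to 111168444, encodes BIM, an activator of BAX and BAK1. Its FPKM was 3.43, 4.71 and 5.45 in IGF2BP1-NC and 6.31, 6.11 and 6.23 in IGF2BP1-KD libraries, so that every IGF2BP1-KD library was higher than every IGF2BP1-NC library. The IGF2BP1-KD libraries were nearly alike and the control libraries spread widely. BCL2L11 thus had a log2 fold change of 0.44 (SE 0.153, adjusted p = 0.0618, edgeR). Without IGF2BP1-NC library 1 it was 0.27 (SE 0.0805, adjusted p = 0.0219, edgeR). Of the 16 other fits, 8 called BCL2L11 higher, 6 of the 10 with all libraries and 2 of the 6 that left out 1 library, with an adjusted p between 0.0107 and 0.154. Exons of the long noncoding RNA gene MIR4435-2HG on the opposite strand cover 14.3% of its mRNA.

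BAD, on chromosome 11 from 64269830 to 64284704, encodes a BH3-only protein that growth factor signals hold inactive by phosphorylation. Its FPKM was 10.3, 11.3 and 9.88 in IGF2BP1-NC and 8.90, 8.81 and 8.96 in IGF2BP1-KD libraries. Every IGF2BP1-KD library was lower. Its log2 fold change of -0.25 (SE 0.116, adjusted p = 0.127, edgeR) did not pass the test of the counts, and 2 fits of the FPKM values called it (lowest adjusted p = 0.0396, limma). Over the other fits the adjusted p reached 0.333. Exons of GPR137 on the opposite strand cover 33.8% of the BAD mRNA, and GPR137 itself had 390 to 565 counts and a log2 fold change of 0.13 (adjusted p = 0.516, edgeR).

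BID, on chromosome 22 from 17734138 to 17774770, encodes the BH3-only protein that caspase-8 cleaves to link death receptors to mitochondria. Its FPKM was 21.6, 23.3 and 19.2 in IGF2BP1-NC and 21.4, 20.7 and 19.0 in IGF2BP1-KD libraries, which overlapped. With a log2 fold change of -0.08 (SE 0.0852, adjusted p = 0.511, edgeR), BID was called by no fit.

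Exact permutation tests on the FPKM of each member (two-sided, 3 against 3 libraries) gave p = 0.1 for BAK1, BCL2L11, MCL1, BAD and PMAIP1, which is the smallest p that this design allows. The same exact permutation tests gave p = 0.2 for BAX and BCL2, 0.3 for BCL2L1, 0.4 for BID and 0.8 for BBC3.

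**Figure D3:**
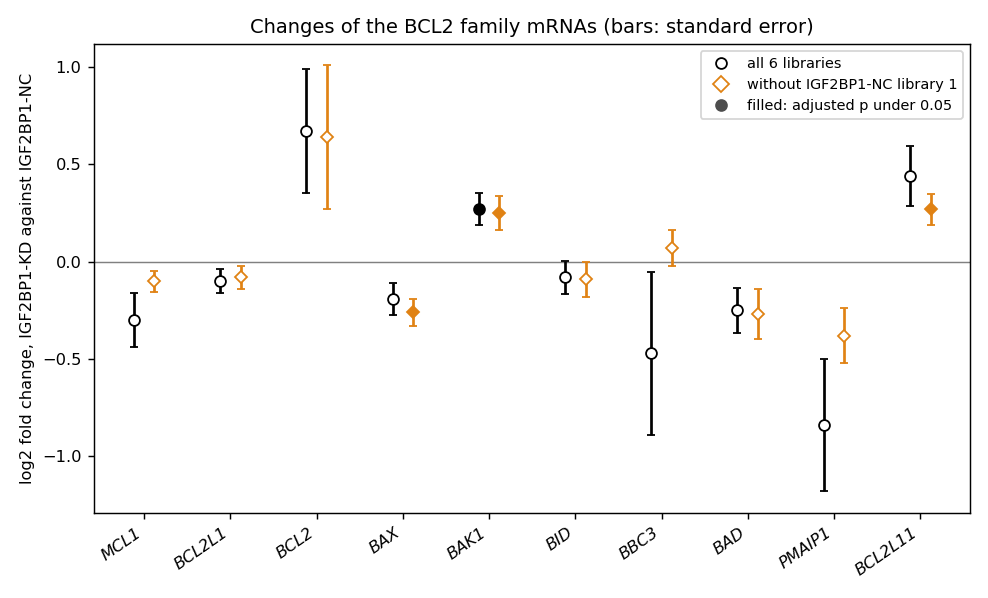
Log2 fold change of each member in IGF2BP1-KD against IGF2BP1-NC with its standard error, from all 6 libraries (circles) and without IGF2BP1-NC library 1 (diamonds), where filled symbols have an adjusted p under 0.05. BAK1 is filled in both fits, BAX and BCL2L11 without that library only, and BBC3 moves from -0.47 to 0.07.

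The FPKM values were also summed by role, as a description without a test. The anti-apoptotic sum was 210, 171 and 160 in IGF2BP1-NC and 160, 154 and 160 in IGF2BP1-KD libraries. The effector sum was 60.3, 70.2 and 65.8 against 62.0, 59.0 and 65.1, and the BH3-only sum was 79.0, 57.8 and 53.5 against 54.3, 53.7 and 52.3. IGF2BP1-NC library 1 was highest for the anti-apoptotic and the BH3-only sum, and the remaining libraries lay close together. The share of the family total taken by anti-apoptotic mRNAs was 57.2% to 60.1% in IGF2BP1-NC and 57.7% to 58.0% in IGF2BP1-KD libraries. The ratio of the BH3-only to the anti-apoptotic sum averaged 0.349 with an SD of 0.0236 over the 3 IGF2BP1-NC libraries and 0.338 with an SD of 0.0113 over the 3 IGF2BP1-KD libraries, a difference smaller than the SD of the controls. Without IGF2BP1-NC library 1 the control mean was 0.336, and the difference, IGF2BP1-KD minus IGF2BP1-NC, turned from -0.0115 to 0.0021. Since MCL1 and BCL2L1 make up nearly all of the anti-apoptotic sum, their balance was read as well, and MCL1 FPKM divided by BCL2L1 FPKM was 1.36, 0.998 and 0.994 in IGF2BP1-NC and 0.947, 1.05 and 0.947 in IGF2BP1-KD libraries.

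Further genes of the pathway were taken from 5 lists. Of their 89 tested genes, 25 were called (28.1%), and 14 of these 25 were called in each of the 6 fits that left out 1 library. Among 15 other BCL2-related genes, 9 were tested, 1 rose and 1 fell, with a median log2 fold change of -0.08. BMF, a BH3-only gene, had 81, 66 and 76 counts in IGF2BP1-NC and 114, 117 and 231 in IGF2BP1-KD libraries, and rose by 1.06 on the log2 scale (SE 0.275, adjusted p = 0.0184, edgeR). Without IGF2BP1-NC library 2 or 3, BMF lost its call (highest adjusted p = 0.0775, edgeR). Without IGF2BP1-KD library 3, the one with 231 counts, it rose by 0.65 (adjusted p = 0.0331, edgeR). BNIP3, a mitophagy receptor, fell by 0.36 on the log2 scale (SE 0.0837, adjusted p = 0.00906, edgeR). BCL2A1, an anti-apoptotic member of lymphoid and myeloid cells, had 1 to 5 counts, and BCL2L10 and BCL2L14 had 0 counts in every library, which allows up to 3 counts per library. BCL2L2, which encodes the anti-apoptotic BCL-W, had a log2 fold change of 0.00 (SE 0.0948, adjusted p = 0.997, edgeR).

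Of 20 genes that act downstream at or after the mitochondrial step, all were tested, 4 rose and 1 fell, with a median log2 fold change of 0.02. Values are given for 3 of the 4 that rose. XIAP, which inhibits caspases, rose by 0.32, VDAC3, a channel of the outer membrane, by 0.24 and BIRC5, the mitotic protein survivin, by 0.23 on the log2 scale. These 3 lost their calls in 3 of the 6 fits with a library left out, with an adjusted p of up to 0.126 for VDAC3 (edgeR), and without IGF2BP1-NC library 1 the log2 fold change of BIRC5 was 0.15 (adjusted p = 0.0470, edgeR). AIFM1, a flavoprotein of the intermembrane space, fell by 0.29 on the log2 scale (adjusted p = 0.00413, edgeR). The apoptosome genes APAF1, CYCS and CASP9 had log2 fold changes of -0.06, -0.03 and -0.33 with an adjusted p of 0.760, 0.724 and 0.130 (edgeR).

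Among 14 death receptor genes, 9 were tested, 2 rose and 1 fell, with a median log2 fold change of 0.01. TNFRSF1A, the main TNF receptor, had 539, 323 and 261 counts in IGF2BP1-NC and 166, 163 and 175 in IGF2BP1-KD libraries, and changed by -1.15 on the log2 scale (SE 0.268, adjusted p = 0.0189, edgeR) and by -0.79 without IGF2BP1-NC library 1 (adjusted p = 0.00103, edgeR). The adaptors TRADD and FADD rose by 0.42 and 0.29 on the log2 scale. TNFRSF1A and TRADD each lost their call in 3 of these 6 reduced fits and FADD in 4, with an adjusted p of up to 0.0887, 0.0673 and 0.139 (edgeR).

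Of 31 genes that regulate the expression or stability of family members, all were tested, 2 rose and 6 fell, with a median log2 fold change of -0.07. STAT3, a transcription factor activated by cytokines, had 5182, 4045 and 4097 counts in IGF2BP1-NC and 8282, 7388 and 8082 in IGF2BP1-KD libraries, and rose by 0.84 on the log2 scale (SE 0.0923, adjusted p = 0.000197, edgeR). DYNLL2, the dynein light chain that binds BMF, rose by 0.34 on the log2 scale. FOXO1, a transcription factor known to act on BCL2L11, fell by 1.32 on the log2 scale (adjusted p = 0.0056, edgeR). Its level was low, with 52, 49 and 58 counts in IGF2BP1-NC and 14, 25 and 24 in IGF2BP1-KD libraries, a mean FPKM of 0.284 and 0.115. PIM2 and PIM1, kinases that phosphorylate BAD, fell by 0.57 and 1.01 on the log2 scale (adjusted p = 0.000226 and 0.0444, edgeR), and STAT5B, which drives PIM1 and BCL2L1 in blood cells, fell by 0.44. PIM1 had 10197 counts in IGF2BP1-NC library 1 against 6305 and 5503, and without that library its log2 fold change was -0.70 (adjusted p = 2.63e-05, edgeR). It was not called in 4 of the other 5 reduced fits (highest adjusted p = 0.146, edgeR). DDIT3, which encodes CHOP, had a log2 fold change of 0.47 (adjusted p = 0.431, edgeR) with all libraries and of 0.93 (adjusted p = 0.00561, edgeR) without IGF2BP1-NC library 1.

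Of 23 listed growth arrest, DNA damage and stress response genes, 21 were tested, 4 rose, 3 fell and 14 did not pass the test, which is 33.3% called beside 28.2% of all tested genes, with a median log2 fold change of -0.16. TP53I3, TP53INP1, GADD45B and DDB2 rose by 1.42, 0.99, 0.82 and 0.43 on the log2 scale, and CDKN1A, ZMAT3 and CCNG1 fell by 1.54, 0.85 and 0.32. CDKN1A, the inhibitor of cyclin-dependent kinases p21, had 1110, 515 and 626 counts in IGF2BP1-NC and 217, 248 and 303 counts in IGF2BP1-KD libraries (adjusted p = 0.0292, edgeR), and its log2 fold change was -1.14 without IGF2BP1-NC library 1. CDKN1A was called in 2 of the 6 reduced fits, GADD45B in 3 and DDB2 in 1, with an adjusted p of up to 0.0955, 0.0745 and 0.121 (edgeR). Without IGF2BP1-NC library 1, 5 genes of this list were higher and 7 lower at an adjusted p under 0.05, where 32.8% of all tested genes were called in either direction. In the same fit 2 family members, BAK1 and BCL2L11, were called higher and 1, BAX, lower, where 15.8% of all tested genes were higher and 16.9% lower.

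**Figure D4:**
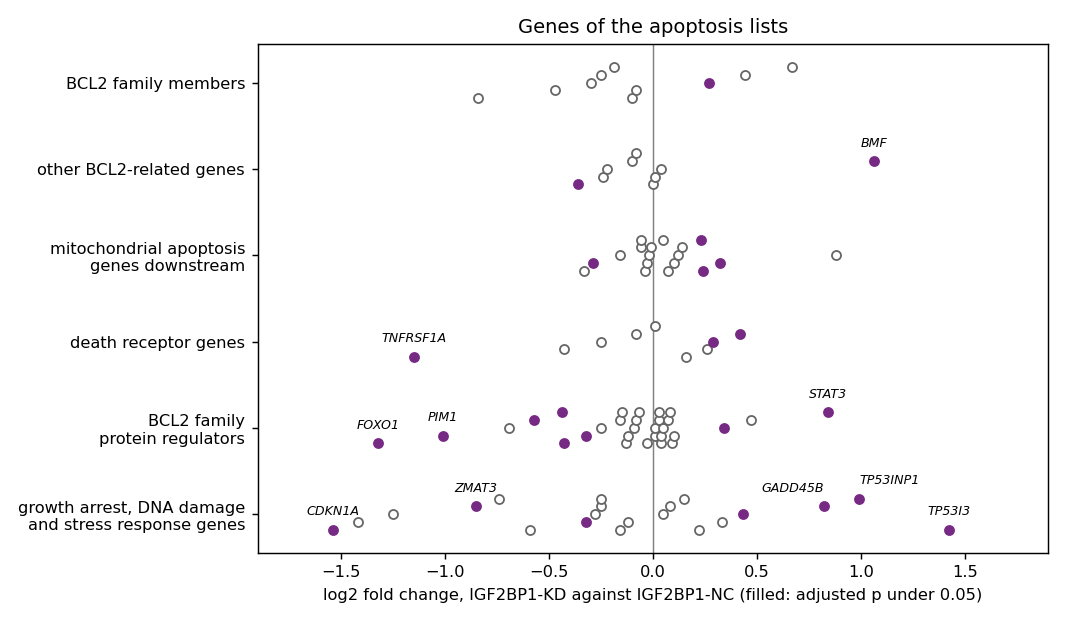
Log2 fold change of genes in the family and in the 5 further lists, with genes at an adjusted p under 0.05 filled and those beyond 0.8 in size named. The family has 1 filled point, BAK1, and the filled points of the other lists fall on both sides of 0.

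The genes most like BAK1 and PMAIP1 were searched among 9283 genes whose mean log2 CPM was 3 or more, by the root mean square difference of centred log2 CPM profiles over the 6 libraries. For BAK1 these were CHKB, TAPBP, IFI30, FAM50A and PAGR1, at 0.025 to 0.038 log2 units, where the median gene was at 0.196. For PMAIP1, which had the most negative log2 fold change but was not called, they were ITGA5, THEMIS2, RAB11FIP1, CEBPB and SAMD4A, at 0.103 to 0.147 log2 units, where the median gene was at 0.535. CEBPB is also among the ATF4 response genes and was 2.59-fold above the mean of the other control libraries in IGF2BP1-NC library 1. That library weighs most in the PMAIP1 profile, and the ATF4 list was drawn up after it had been seen. The overlap is therefore no test of a link between PMAIP1 and that response.

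Sequence features of the members were read as a description. The letters GGAC, the core of the m6A consensus and of reported IGF2BP binding motifs, occurred 3 times in the PMAIP1 mRNA and 20 times in that of BCL2. Per kilobase, the density ranged from 1.58 in PMAIP1 to 16.4 in BAX, and 7 of the 10 members were above the median of 3.67 over 11447 tested genes with a MANE Select transcript. BAK1 had 6.45, BCL2L11 2.75 and MCL1 4.30 per kilobase. Both strands of the RefSeq promoters (GRCh38.p14, 250 bases before to 50 after the start site) were searched for motifs in 15 windows of 9 members. TGATGNAA, the core of the ATF4 response element, and TGACGTCA, the cyclic AMP response element, were found in 0 of them, against 3.62% and 1.85% of all 35116 promoters. CACGTG, the E-box, was found in those of BAX, BBC3 and BID, against 7.26% of all promoters, with 4 matches over the windows of BAX. Matches can repeat where windows of a gene overlap. A member counts once over all its windows while the share is per promoter, so they are not like for like. No window of the other members searched held these letters. MCL1 had no promoter in the set and was not searched.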

How the data were processed

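RNA-seq of 6 libraries labelled H929, 3 IGF2BP1-KD and 3 IGF2BP1-NC, was grouped by sample titles. The authors used Trimmomatic for trimming, HISAT2 for alignment to GRCh38 and HTSeq-count for counting, and the counts they deposited are raw whole numbers. FPKM values, also deposited, were made by the authors with Cufflinks according to their methods. Versions, annotation release and the strand setting of the counting are not given in the sources used here.

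Counts of 20030 genes were scaled with TMM factors, 11994 genes passed filterByExpr, and these were tested with edgeR 4.0.16 (glmQLFit with robust estimation, glmQLFTest, two-sided, R 4.3.3). P-values were adjusted by Benjamini-Hochberg over all tested genes, and an adjusted p under 0.05 was a call. Standard errors were computed from the log2 fold change and the F statistic. Alternatives used DESeq2 1.42.0, limma 3.58.1 (voom on counts, and trend on log2(FPKM + 1) with a mean FPKM of at least 1), other scalings and filters, the replicate number as a block, and each library left out. Exact permutation tests used scipy 1.17.1. Simulated data were used to try edgeR, DESeq2, limma-voom, limma on log2(FPKM + 1), the replicate block and the fit without IGF2BP1-NC library 1. The other scalings, filters and fits with a library left out were not tried in this way. All genes were simulated with the same biological variation, and no library was made to stand apart. The biological coefficient of variation was 9.55%. Counting limits cover counting error only.

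The members, lists and tests were chosen with earlier results of these data known. Named genes are the 10 members, up to 4 called genes per direction and list with the largest change, and the 5 nearest profiles of 2 members. The ATF4 response genes, the motifs and genes named without a call were chosen after their values had been seen. Gene positions, overlaps and mRNA sequences come from GENCODE release 44 and promoters from RefSeq. Some genes of these lists are counted but their own values are not reported here.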

Additional observations from a re-analysis of the deposited data

How the results depend on the processing

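The count of members called higher was 1, and it was 2 with library size only, upper-quartile factors, limma-voom and limma on log2(FPKM + 1) or log2(FPKM + 0.1), where BCL2L11 joined BAK1. It was 0 with the replicate block and ranged from 0 to 2 with each library left out. The count of members called lower was 0, and it was 2 with DESeq2, 1 with limma on log2(FPKM + 1) or log2(FPKM + 0.1), and 0 to 2 with each library left out. Among the members, the sign changed for BBC3, whose log2 fold change ranged from -0.72 to 0.07 with each library left out, the latter without IGF2BP1-NC library 1. Without that library, the difference between the groups also changed sign for the BH3-only to anti-apoptotic ratio, from -0.0115 to 0.0021, and for the anti-apoptotic to effector ratio, from -0.232 to 0.116. Without a filter, limma on log2(FPKM + 1) called 1 of the other BCL2-related genes and 2 of the downstream genes, of which the replicate block called 3. With each library left out, the calls ranged from 1 to 4 for the other BCL2-related genes, 3 to 6 for the downstream genes, 0 to 4 for the death receptor genes and 4 to 12 for the growth arrest genes. The genes lower among all tested ranged from 1146 to 2062. The cause of these shifts was not tested, except that a fit without a library has fewer samples.

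The replicate numbers did not pair the libraries, since the deviations of same-numbered libraries from their group means correlated at -0.052, 0.0363 and -0.106. Of the single members' values, 86 of 98 in fits with all libraries and 50 of 60 with a library left out kept their direction and their side of the threshold. FPKM values derive from the same reads. BCL2, with 18 to 42 counts, is the member that depth limits most.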
